A study of Mus musculus with 20 samples.

Results

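The BCL2 family governs whether a stressed cell keeps the outer membrane of its mitochondria intact. In kidney RNA of mice, 10 of its genes were followed through renal ischemia/reperfusion injury (IRI) and through protection by ischemic preconditioning (IPC) or by Hemin. The genes were found by name in the array annotation: Bcl2, Bcl2l1, Bcl2l2, Bcl2l11, Mcl1, Bak1, Bid, Bad, Bik and Bmf. They are 10 of 27827 gene names on the array, and they are read by 22 of its 41174 probes.

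Total kidney RNA from male C57BL/6 mice aged 8 to 12 weeks was labelled with Cy3 and read on 20 single-colour Agilent arrays of the whole mouse genome, 4 for each of 5 groups. Control animals had no surgery and no treatment. IRI animals had both renal pedicles clamped for 45 min and were killed after 6 h of reperfusion. IRI+Hemin animals received Hemin, an inducer of heme oxygenase 1, at 25 mg/kg into the peritoneum 24 h before the same surgery, and Hemin animals received it with no surgery. IPC+IRI animals had 15 min of ischemia 7 days before the same clamping. IPC+IRI and IRI+Hemin are called the protected groups here, after the study's purpose. Since Control animals were not operated on, anesthesia and incision cannot be told apart from ischemia, and there is no group with preconditioning alone. In whole kidney RNA, fewer cells of a type and less RNA per cell cannot be told apart.

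The family has members that guard the outer mitochondrial membrane, effectors that open it, and messengers that carry the stress signal. Bcl2, Bcl2l1 (which encodes BCL-XL), Bcl2l2 (BCL-W) and Mcl1 are guardians that bind and hold back the others. Bak1 encodes BAK, an effector that, like BAX, forms the pore through which cytochrome c leaves. Bid, Bcl2l11 (BIM), Bad, Bik and Bmf are messengers whose BH3 helix fits into the groove of the guardians, and BID and BIM can also engage the effectors directly. In the kidney, loss of the mitochondrial membrane barrier is a known route of tubular cell death after ischemia. All of these proteins are also controlled after transcription, which arrays do not measure.

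Some of the probes lie within or next to the stretches that carry these functions, and 4 of them are shown, 1 each for Bak1, Bcl2, Bcl2l11 and Bcl2l1. Each is 60 bases long, is written 5′ to 3′ as in the array annotation, and is placed on the mouse build mm9. Capitals mark the codons named after each sequence.
Bak1, probe A_52_P225207, chr17:27158232-27158291, minus strand: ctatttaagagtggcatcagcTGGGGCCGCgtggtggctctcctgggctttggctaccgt
Bcl2, probe A_51_P380013, chr1:108608970-108609029, minus strand: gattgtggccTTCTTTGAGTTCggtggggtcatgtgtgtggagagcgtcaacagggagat
Bcl2l11, probe A_51_P484880, chr2:127972893-127983988, plus strand: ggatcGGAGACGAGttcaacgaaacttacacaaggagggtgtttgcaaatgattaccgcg
Bcl2l1, probe A_52_P510877, chr2:152655185-152655244, minus strand: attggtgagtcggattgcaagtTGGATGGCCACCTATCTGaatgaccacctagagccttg
In the Bak1 probe the capitals are the codons for tryptophan, glycine and arginine of the BH1 motif, which is part of the binding groove. In the Bcl2 probe they are the codons for phenylalanine, phenylalanine, glutamate and phenylalanine of the same motif. In the Bcl2l11 probe they are the codons for glycine, aspartate and glutamate at the core of the BH3 helix, and the span of the coordinates shows that this probe joins 2 exons. In the Bcl2l1 probe they are codons of the coding stretch just before the BH2 motif.

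The values are the processed signal of the scanner software divided by the 75th percentile of each array, averaged over the probes of a gene, on a log2 scale. A log2 expression of 0 is therefore the array's 75th percentile. The scanner software called between 57.4% and 67.4% of genes per array well above background. The share was 57.4% to 62.1% in IRI, below the 63.3% to 64.1% of Control and the 64.2% to 67.4% of Hemin. It was 60.1% to 66.5% in IRI+Hemin and 62.4% to 66.1% in IPC+IRI. All 10 members passed that call on all 20 arrays, as did 19 of their 22 probes. No member probe was saturated and no value was missing. The 5 groups were on 5 slides, 1 slide per group, scanned on 3 days (Control and IRI on day 1, IRI+Hemin on day 2, IPC+IRI and Hemin on day 3), and a slide effect cannot be told apart from a group effect. Kidney markers were well above background on every array, namely 5 of 5 markers of the proximal tubule (such as Lrp2 and Slc34a1) and 4 of 4 of the thick limb and distal tubule (such as Umod). Among the 5 neutrophil markers, Csf3r and Il8rb were above background on no Control array, and in IRI vs Control 3 were tested, with 2 higher and 1 lower. The summed level of the 5, in units of the 75th percentile, ranged from 0.320 to 0.669 on the Control arrays and from 0.521 to 1.62 on those of Hemin. It was 6.36 to 19.3 in IPC+IRI, 2.49 to 8.08 in IRI and 2.21 to 9.51 in IRI+Hemin. The summed level of the 5 proximal tubule markers was 347.5 to 389.6 in Control and lower in each injured group, at 255.4 to 344.5 in IRI, 255.8 to 283.3 in IPC+IRI and 221.6 to 302.2 in IRI+Hemin, and 2 of these 5 were lower in IRI vs Control. The 2 collecting duct markers summed to 10.3 to 13.1 in Control and 18.1 to 31.8 in IRI, and 3 of 3 B cell markers were lower in IRI vs Control. The 3 macrophage markers summed to 1.24 to 1.52 in Control and 1.90 to 2.53 in IRI, and 1 of them was higher in IRI vs Control. In Hemin the proximal tubule sum was 326.6 to 349.4, overlapping with Control, and the B cell sum was 0.0741 to 0.155, against 0.0809 to 0.150 in IRI and 0.239 to 0.286 in Control. Hemin vs Control had 2 of 3 B cell markers lower, and of the members Bid and Bak1 were lower there and Bcl2 higher. In IRI vs Control, with 3 of 3 B cell markers lower, Bak1 did not pass. The B cell marker Cd79a was well above background on 0 of 4 Hemin arrays and 1 of 4 IRI arrays. For Ms4a1 these were 2 of 4 and 0 of 4. Mcl1, Bcl2l1, Bcl2l2, Bcl2l11 and Bid differed from Control in the injured groups, and the part of these cells in the results of the members was not tested.

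The whole table moved in every comparison, and counts of members are to be read against it. The limma fit used all 20 arrays, and a call means an adjusted p under 0.05, whatever the fold. In IRI vs Control, 17.0% of 17711 tested genes were higher and 33.7% lower. Of the 10 members, 3 were higher (Bcl2l1, Mcl1 and Bcl2l11) and 5 lower (Bcl2, Bcl2l2, Bid, Bad and Bmf), while Bak1 and Bik did not pass. The median log2 fold change was -0.44 over the 10 members and -0.17 over all tested genes. With normexp background correction, which models the background of the unprocessed signals and here also adds an offset of 50 to each signal, 3 members were called in place of 8. The count of all genes called fell too, to 3135, against 3003 higher and 5964 lower genes as reported. The part of the offset in these counts was not tested.

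**Figure D1:**
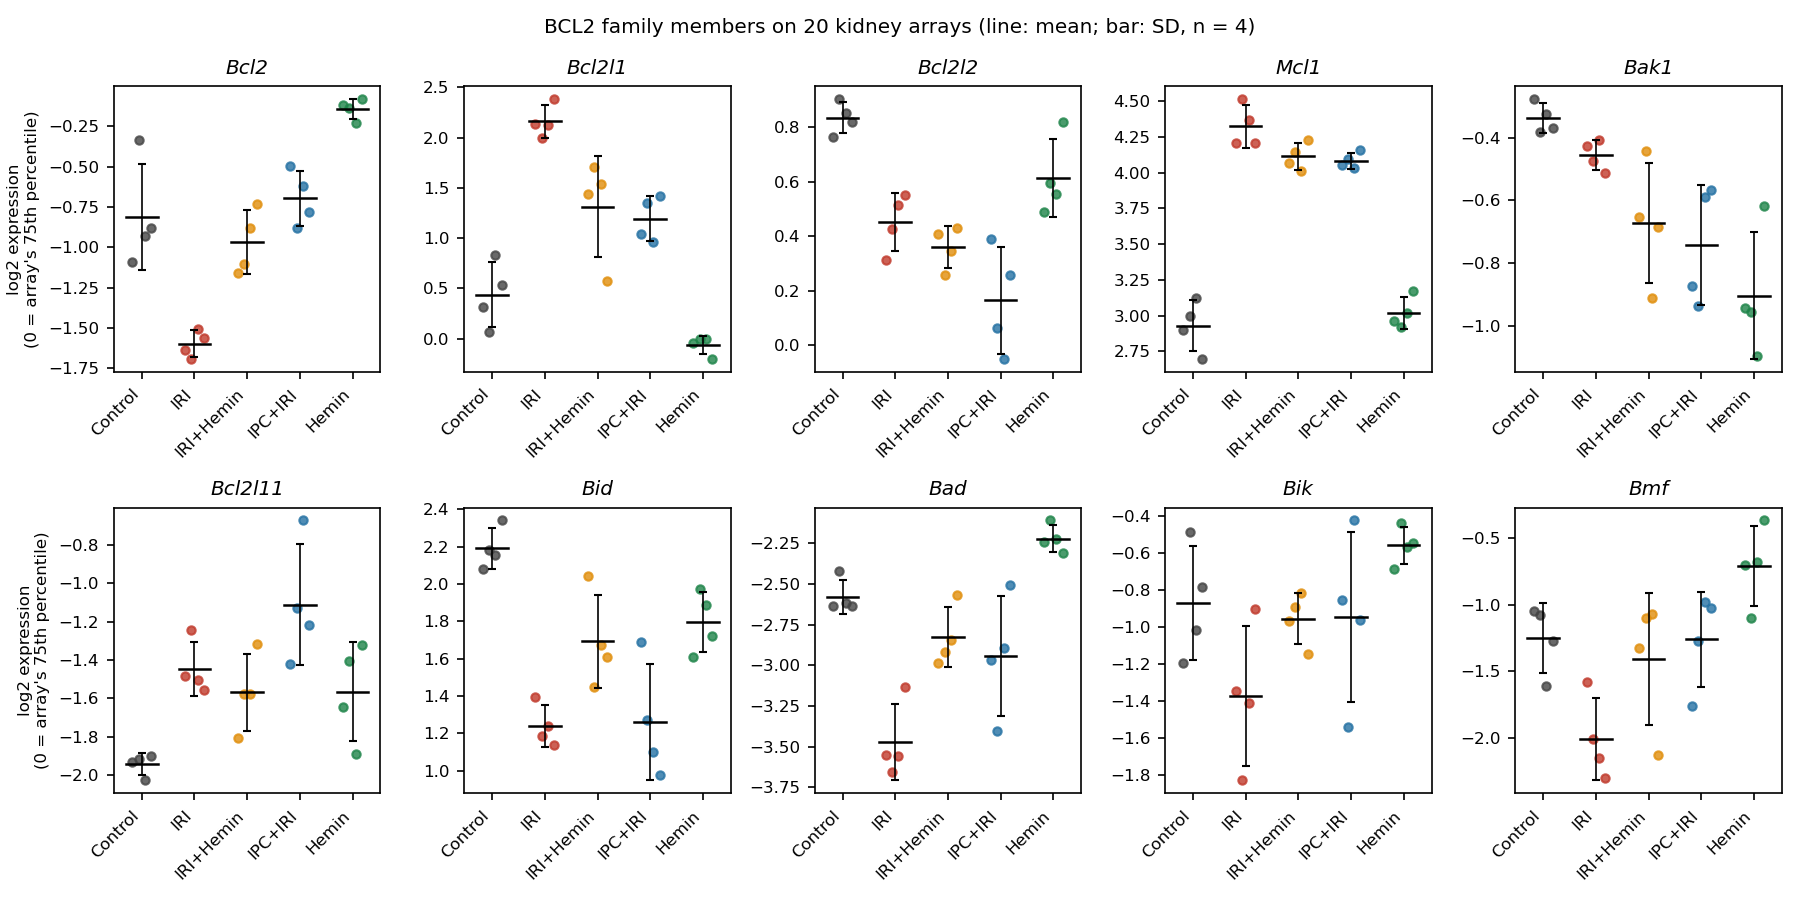
Log2 expression of the 10 members, 1 panel per gene, with 1 point per array, a line at the group mean and a bar of 1 SD (n = 4 arrays per group); 0 on each vertical axis is the array's 75th percentile, and the axes have different ranges. Mcl1 lies between 4.01 and 4.52 on every array of the 3 injured groups and between 2.70 and 3.17 in Control and Hemin, and Bcl2 is lowest in IRI and highest in Hemin.

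Mcl1, a short-lived guardian, was higher in all 3 injured groups, with the lowest adjusted p of the 10 members in each of these 3 comparisons with Control. On the 4 Control arrays its log2 expression was 2.90, 3.00, 3.12 and 2.70, and on the 4 Hemin arrays 2.96, 2.92, 3.02 and 3.17. In IRI it was 4.21, 4.52, 4.37 and 4.21. In IRI+Hemin it was 4.07, 4.15, 4.01 and 4.23, and in IPC+IRI 4.05, 4.09, 4.03 and 4.16. The injured groups lay wholly above the uninjured groups, which overlapped. IRI+Hemin overlapped with both other injured groups, while every IPC+IRI array was just below every IRI array. The rise in IRI vs Control was 2.63-fold (log2 fold change 1.40, SE 0.10, adjusted p = 2.1e-08). It was 2.23-fold in IPC+IRI vs Control (log2 fold change 1.16, SE 0.10, adjusted p = 1.85e-07) and 2.27-fold in IRI+Hemin vs Control (log2 fold change 1.18, SE 0.10, adjusted p = 1.25e-07). These 3 calls held under all 12 other settings fitted (other background corrections, scalings, filters, ways of averaging probes and models) and with each of the 20 arrays left out. Here and below, leaving out an array of a group not compared can change the adjusted p but not the fold change. Hemin alone gave a log2 fold change of 0.09 (adjusted p = 0.53).

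With the 75th percentile scaling and averaged probes, neither protective maneuver moved Mcl1 past the threshold against IRI. The log2 fold change was -0.24 in IPC+IRI vs IRI (adjusted p = 0.07) and -0.21 in IRI+Hemin vs IRI (adjusted p = 0.109). In 3 of the 12 settings Mcl1 was called lower in both, with quantile normalization at -0.35 (adjusted p = 0.00551) and -0.30 (adjusted p = 0.012). The others were the 75th percentile of probes above background on all arrays and the averaging of log2 values. Its 2 probes, 1312 bases apart on chromosome 3, gave different sizes. The probe A_52_P93933 rose from 1.90 ± 0.37 in Control to 4.16 ± 0.21 in IRI (SD, n = 4; log2 difference 2.26, adjusted p = 4.15e-08), and A_51_P238786 from 3.51 ± 0.22 to 4.47 ± 0.11 (log2 difference 0.96, adjusted p = 6.75e-06). The first of these also fell against IRI in both protected groups, by 0.53 on the log2 scale in IPC+IRI (adjusted p = 0.023) and by 0.75 in IRI+Hemin (adjusted p = 0.00268). The second differed by -0.05 and 0.10 in these comparisons and did not pass. These are calls on single probes, for which 17.6% of 25940 probes tested were higher and 30.7% lower in IRI vs Control. The shares were 26.3% and 19.8% in IPC+IRI vs IRI, and 26.6% and 19.9% in IRI+Hemin vs IRI.

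Bcl2l1, which encodes the guardian BCL-XL, had the largest log2 fold change of the 10 members in IRI vs Control. Its log2 expression was 0.31, 0.07, 0.83 and 0.53 in Control and 2.14, 1.99, 2.13 and 2.38 in IRI. It was 1.04, 1.35, 0.96 and 1.42 in IPC+IRI, 1.43, 1.70, 1.54 and 0.57 in IRI+Hemin, and between -0.20 and 0.00 on the 4 Hemin arrays. Every IRI array lay above every array of the other groups, and IRI+Hemin replicate 4, at 0.57, lay below the rest of its group and inside the Control range. The rise in IRI vs Control was 3.31-fold (log2 fold change 1.72, SE 0.20, adjusted p = 3.16e-06) and held under all 12 other settings and without any 1 array. Against Control it was also higher in IPC+IRI (1.69-fold; adjusted p = 0.00439) and in IRI+Hemin (1.84-fold; adjusted p = 0.00144), the first of which was lost when log2 values were averaged over probes, at 0.48 (adjusted p = 0.0693). With Hemin alone every array was below every Control array, with a log2 fold change of -0.50 (SE 0.20) that did not pass in the limma fit (adjusted p = 0.0647). Without scaling between arrays the value was 0.0669, of the opposite sign. On the scaled values, the exact permutation test of these 4 against 4 arrays, two-sided, gave p = 0.029, the smallest it can give.

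Both protected groups had less Bcl2l1 RNA than IRI. The level was 1.96-fold lower in IPC+IRI vs IRI (log2 fold change -0.97, SE 0.20, adjusted p = 0.00114) and 1.8-fold lower in IRI+Hemin vs IRI (log2 fold change -0.85, SE 0.20, adjusted p = 0.00293). The 2 comparisons share the IRI arrays. Without IRI+Hemin replicate 4 the difference of IRI+Hemin from IRI was -0.60. Both calls were lost without any scaling between arrays, at -0.65 (adjusted p = 0.165) and -0.48 (adjusted p = 0.297). All 3 probes rose in IRI vs Control, by a log2 difference between 1.56 and 1.79, with 2 of them 545 bases apart and the other one 49.1 kb away. They parted in the protected groups. A_51_P299454 was back at the Control level in IPC+IRI (log2 difference 0.03, adjusted p = 0.908), while A_52_P148861, spotted 10 times per array, stayed above it (log2 difference 0.82, adjusted p = 0.0022). The probe shown above rose from -0.86 ± 0.49 to 0.93 ± 0.48 in IRI (SD, n = 4; log2 difference 1.79, adjusted p = 3.9e-05) and did not pass in IRI+Hemin vs IRI (log2 difference -0.65, adjusted p = 0.0577).

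Bcl2, the founding guardian of the family, moved the other way. Its log2 expression was -1.09, -0.34, -0.93 and -0.88 in Control and -1.64, -1.69, -1.50 and -1.56 in IRI. It was -0.50, -0.88, -0.62 and -0.78 in IPC+IRI, -1.16, -1.10, -0.88 and -0.73 in IRI+Hemin, and -0.12, -0.14, -0.23 and -0.08 in Hemin. The IRI arrays lay below every other array and the Hemin arrays above every other array, while Control, IPC+IRI and IRI+Hemin overlapped. Bcl2 was 1.73-fold lower in IRI vs Control (log2 fold change -0.79, SE 0.14, adjusted p = 0.000189), and this call was lost under normexp background correction, at -0.36 (adjusted p = 0.0717). It was 1.87-fold higher in IPC+IRI than in IRI (log2 fold change 0.90, SE 0.14, adjusted p = 0.000102) and 1.55-fold higher in IRI+Hemin than in IRI (log2 fold change 0.63, SE 0.14, adjusted p = 0.00174). The second of these was lost under normexp, at 0.16 (adjusted p = 0.35). Hemin alone was 1.59-fold above Control (log2 fold change 0.67, SE 0.14, adjusted p = 0.00178), a call that held under all 12 settings and without any 1 array.

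**Figure D2:**
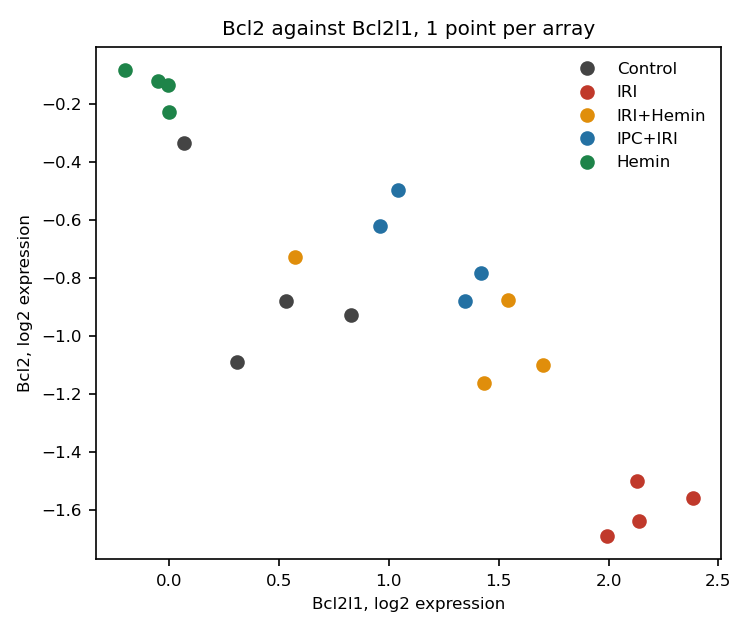
Log2 expression of Bcl2 (vertical) against Bcl2l1 (horizontal), 1 point per array, coloured by group; 0 is the array's 75th percentile. The 4 IRI arrays lie at the lower right, with Bcl2l1 at 1.99 or above and Bcl2 at -1.50 or below, and the 4 Hemin arrays at the upper left.

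The fall of Bcl2 was read by 3 probes spread over 174 kb of chromosome 1, each at a different size. The probe with the BH1 codons shown above went from -0.62 ± 0.30 in Control to -1.03 ± 0.23 in IRI (SD, n = 4; log2 difference -0.41, adjusted p = 0.0424). Another probe 1660 bases away, named for a cDNA clone, went from -2.55 ± 0.30 to -3.39 ± 0.12 (log2 difference -0.84, adjusted p = 0.00374), and the distant probe, spotted 10 times per array, from -0.17 ± 0.37 to -1.32 ± 0.22 (log2 difference -1.15, adjusted p = 8.65e-05). All 3 were higher in Hemin than in Control, with adjusted p between 0.00232 and 0.0199, a comparison in which 17.8% of all probes tested were higher and 18.3% lower. All 3 were also higher in both protected groups than in IRI, with groups that did not overlap.

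Bcl2l2, the guardian BCL-W, was lower in every injured group than in Control when its 2 probes were averaged, by less than 2-fold. Its log2 expression averaged 0.83 ± 0.06 in Control, 0.61 ± 0.14 in Hemin, 0.45 ± 0.11 in IRI, 0.36 ± 0.08 in IRI+Hemin and 0.17 ± 0.20 in IPC+IRI (SD, n = 4). No injured array reached the Control range of 0.76 to 0.90. The difference was 1.3-fold in IRI (log2 fold change -0.38, SE 0.10, adjusted p = 0.00538), 1.59-fold in IPC+IRI (adjusted p = 4.25e-05) and 1.39-fold in IRI+Hemin (adjusted p = 0.000902). It rests on the probe A_51_P331318 (log2 difference -0.40, adjusted p = 0.00645), since A_52_P44, named for a cDNA clone, did not fall in IRI (log2 difference 0.16, adjusted p = 0.612) and was higher than in Control in Hemin (log2 difference 1.09, adjusted p = 0.00195), in IPC+IRI (log2 difference 0.82, adjusted p = 0.00689) and in IRI+Hemin (log2 difference 0.67, adjusted p = 0.0222). Under normexp the call was lost in IRI, at -0.26 (adjusted p = 0.141), and in IRI+Hemin, at -0.20 (adjusted p = 0.167). Without scaling between arrays it was lost in all 3 groups, at -0.26 in IRI, -0.23 in IPC+IRI and 0.0096 in IRI+Hemin. With the log2 values of the 2 probes averaged, it was lost in IRI, at -0.12, and the sign turned in both protected groups against Control, to 0.03 and 0.07. IPC+IRI was also 1.22-fold below IRI (adjusted p = 0.0333), and this call was lost in 7 of the 12 settings, with the sign turned to 0.0298 without scaling and to 0.16 with log2 values averaged. It was also lost without any 1 of 5 arrays, with values between -0.22 and -0.30.

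**Figure D3:**
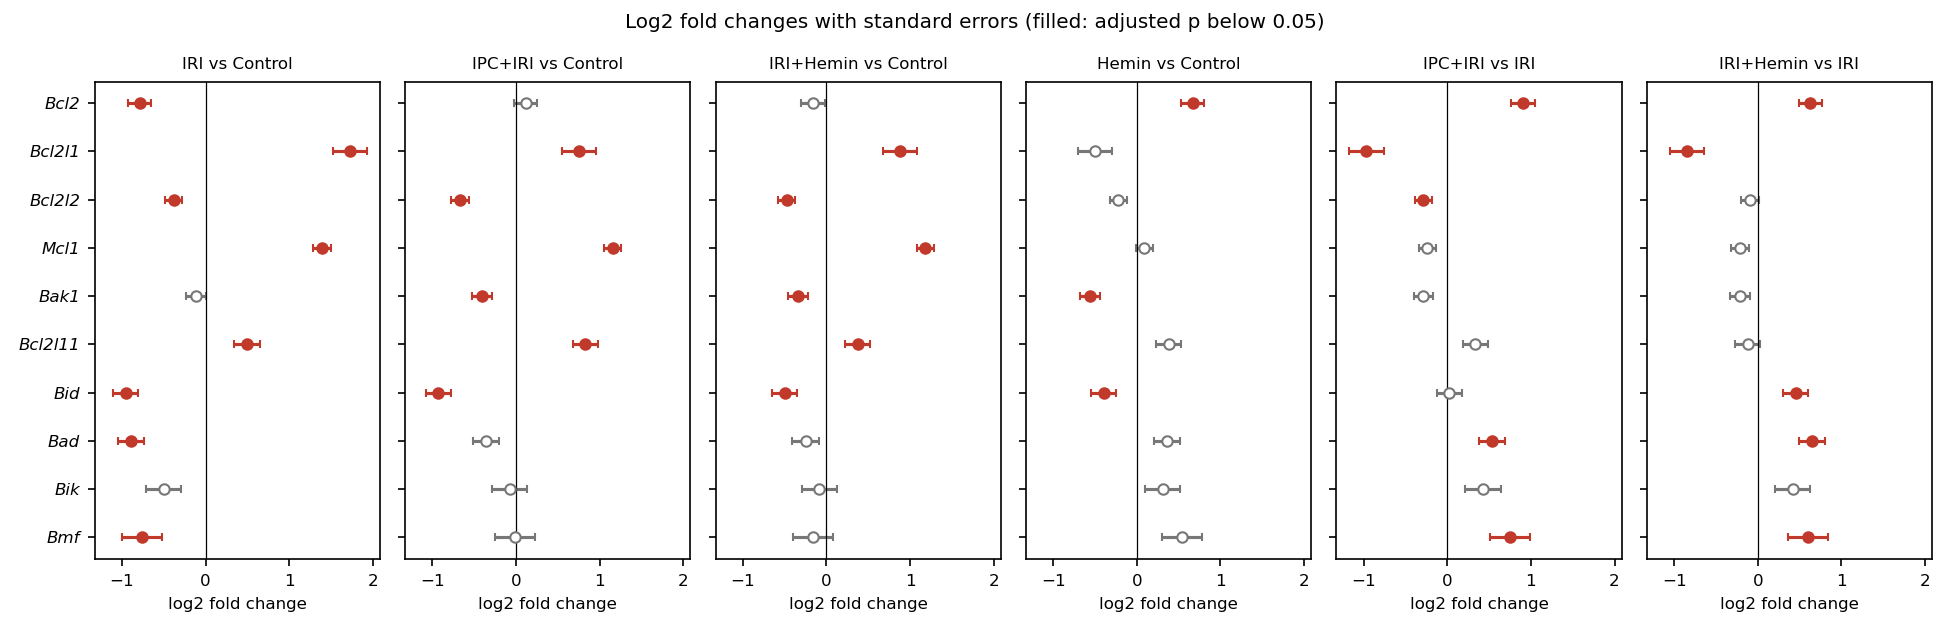
Log2 fold change of each member (horizontal, with 1 SE from the limma fit) in 6 comparisons; filled points passed the threshold of 0.05 on adjusted p. Mcl1 and Bcl2l1 are to the right of 0 in the 3 comparisons of injured groups with Control, Bid to the left, and Bcl2 and Bcl2l1 lie on opposite sides of 0 in both comparisons with IRI.

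The effector Bak1 has 2 probes, 1265 bases apart on chromosome 17, that moved in opposite directions after IRI. Their average went from -0.34 ± 0.05 in Control to -0.46 ± 0.05 in IRI (SD, n = 4) and did not pass (log2 fold change -0.12, SE 0.12, adjusted p = 0.43). The probe with the BH1 codons shown above read -0.31, -0.11, -0.40 and -0.45 in Control and -1.38, -1.22, -1.23 and -1.33 in IRI, without overlap (log2 difference -0.97, adjusted p = 0.000106). The other probe, A_51_P395011, read -0.24, -0.72, -0.25 and -0.29 in Control and 0.14, 0.01, 0.11 and 0.00 in IRI, also without overlap and upward (log2 difference 0.45, adjusted p = 0.0186). The first probe was low in all 4 other groups against Control, with means of -1.35 ± 0.19 in IPC+IRI, -1.05 ± 0.35 in IRI+Hemin and -1.05 ± 0.26 in Hemin. All 4 differences passed, with adjusted p up to 0.00231, and 31.8% of probes were lower and 24.3% higher in IPC+IRI vs Control, and 31.9% and 25.4% in IRI+Hemin vs Control. This probe also had an interaction of Hemin and IRI (log2 difference 0.97, adjusted p = 0.0142), which 6.08% of probes had upward and 2.06% downward. The means of the second probe lay inside the Control range in both protected groups, at -0.31 ± 0.21 and -0.39 ± 0.23, and lower than Control in Hemin, at -0.77 ± 0.20 (log2 difference -0.40, adjusted p = 0.044).

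With Hemin alone both Bak1 probes were below Control. The gene's average on the 4 Hemin arrays was -0.94, -0.96, -1.09 and -0.62, against -0.28, -0.38, -0.32 and -0.37 in Control. The groups did not overlap, and the level in Hemin was 1.48-fold lower (log2 fold change -0.57, SE 0.12, adjusted p = 0.00172). The average was also below Control in IPC+IRI (log2 fold change -0.40, SE 0.12, adjusted p = 0.00804) and in IRI+Hemin (log2 fold change -0.34, SE 0.12, adjusted p = 0.0228). The last call was lost without Control replicate 1 (-0.31) or without IRI+Hemin replicate 3 (-0.26), and in the deposited matrix with the same scaling (-0.32, adjusted p = 0.0614). The call in IPC+IRI was lost under normexp (-0.30, adjusted p = 0.0514). Without any scaling between arrays the difference was 0.00 in Hemin, 0.03 in IPC+IRI and 0.15 in IRI+Hemin.

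**Figure D4:**
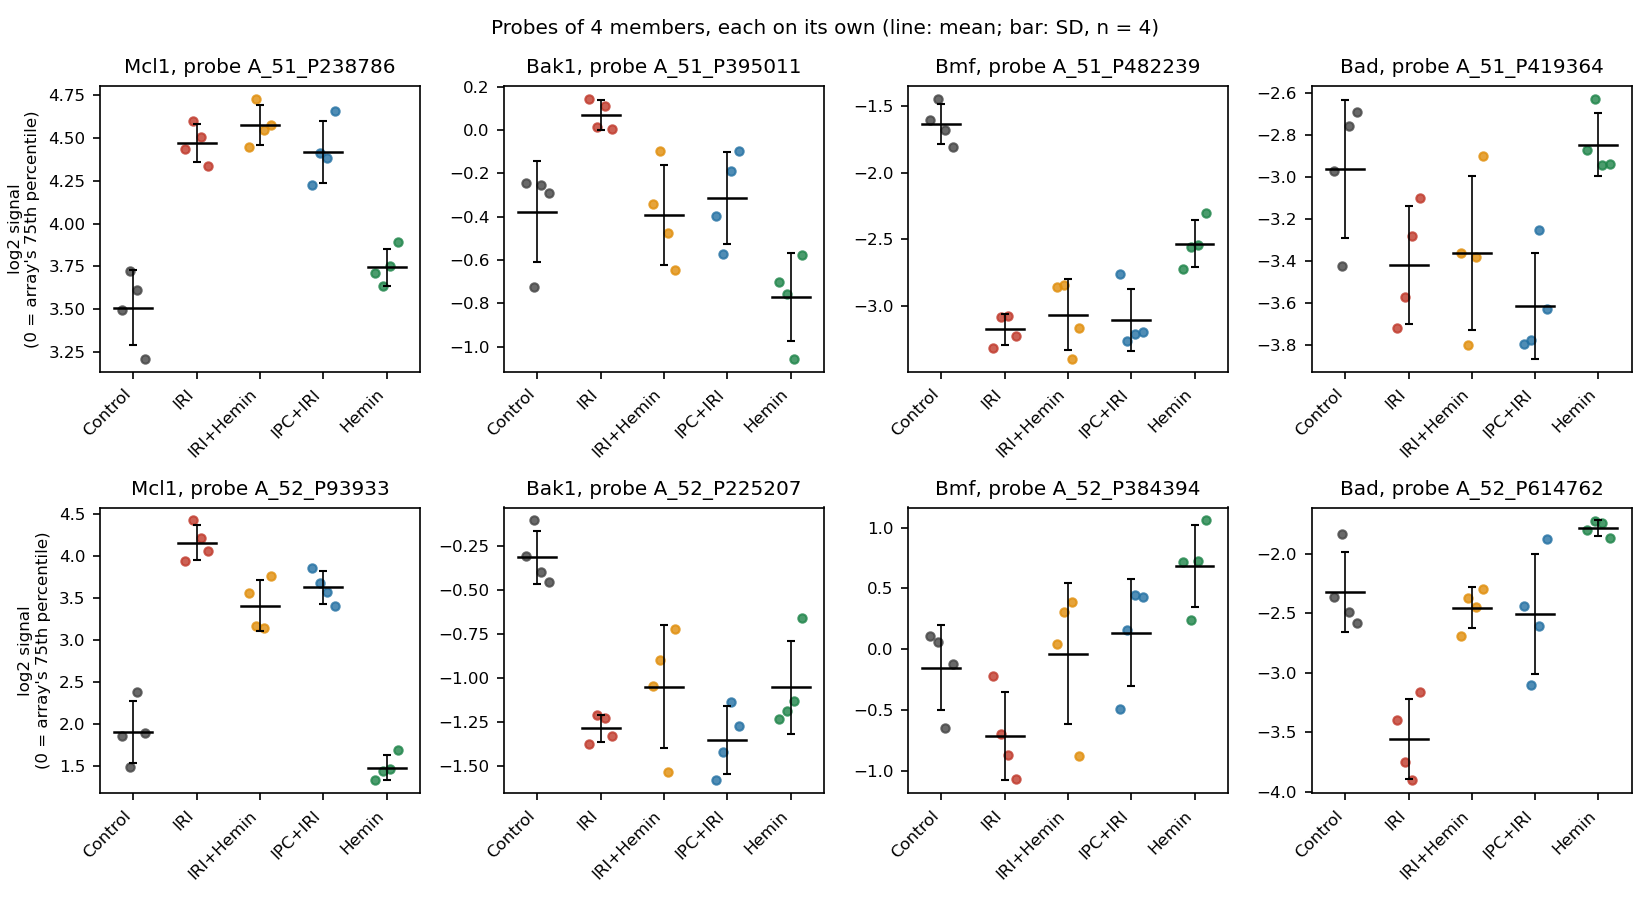
Log2 signal of both probes of Mcl1, Bak1 and Bad and of the 2 Bmf probes above background on all arrays, 1 panel per probe, with 1 point per array, a line at the group mean and a bar of 1 SD (n = 4); 0 is the array's 75th percentile. Both Mcl1 probes are higher in the 3 injured groups than in Control, the Bak1 probes move apart in IRI, and for Bmf and Bad 1 of the 2 probes stays near its IRI mean in the protected groups while the mean of the other is nearer to Control than to IRI.

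Bid, the messenger that is cut by caspase 8 and links death receptors to the mitochondria, was lower in all 4 treated or injured groups than in Control. It is read by 1 probe. Its log2 expression was 2.08, 2.18, 2.16 and 2.34 in Control and 1.39, 1.18, 1.24 and 1.14 in IRI. It was 1.69, 1.27, 1.10 and 0.97 in IPC+IRI, 2.04, 1.45, 1.67 and 1.61 in IRI+Hemin, and 1.61, 1.97, 1.89 and 1.72 in Hemin. No array of another group reached the Control range. Bid was 1.94-fold lower in IRI (log2 fold change -0.95, SE 0.15, adjusted p = 4.91e-05), a call that held under all 12 settings and without any 1 array. With 1 probe, the settings of the brightest probe and of averaged log2 values cannot change its fold change. Bid was 1.91-fold lower in IPC+IRI (adjusted p = 5.28e-05), 1.41-fold lower in IRI+Hemin (adjusted p = 0.00835) and 1.31-fold lower in Hemin (adjusted p = 0.0456). Without scaling between arrays the call was lost in IPC+IRI and in IRI+Hemin, at -0.49 and -0.01, and the sign turned in Hemin, to 0.17. Under normexp it was lost in IRI+Hemin, at -0.25. The call in Hemin was lost in 7 of the 12 settings, with values between -0.39 and 0.17, and without any 1 of 11 arrays, with values between -0.43 and -0.33.

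Bid was the member for which the change with Hemin differed between injured and uninjured kidneys. IRI+Hemin was 1.37-fold higher than IRI (log2 fold change 0.46, SE 0.15, adjusted p = 0.0189) without overlap, while Hemin was lower than Control. The interaction, (IRI+Hemin minus IRI) minus (Hemin minus Control), was 0.85 on the log2 scale (SE 0.21, adjusted p = 0.0182). Over the whole table, 5.82% of 19058 genes had a higher and 1.95% a lower interaction at this threshold, and the other 9 members had adjusted p between 0.177 and 0.942. The interaction held with each of the 20 arrays left out and was lost under normexp, at 0.86 (adjusted p = 0.0607), and without scaling, at 0.65 (adjusted p = 0.494). The difference between IRI+Hemin and IRI was lost without IRI+Hemin replicate 1, the highest array of its group, at 0.34 (adjusted p = 0.0749). In IPC+IRI vs IRI the difference was 0.02 (SE 0.15, adjusted p = 0.918), and the difference between the 2 maneuvers was not tested.

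Bcl2l11, which encodes the messenger BIM, was the only BH3-only member of the 10 that was higher in IRI than in Control. Its log2 expression was -1.93, -1.91, -2.03 and -1.90 in Control and -1.48, -1.24, -1.51 and -1.55 in IRI. It was -1.42, -1.13, -0.67 and -1.22 in IPC+IRI, -1.80, -1.58, -1.58 and -1.31 in IRI+Hemin and -1.64, -1.40, -1.89 and -1.32 in Hemin. All arrays of the 4 other groups lay above the Control arrays. The difference was 1.41-fold in IRI (log2 fold change 0.50, SE 0.15, adjusted p = 0.0118), 1.78-fold in IPC+IRI (log2 fold change 0.83, SE 0.15, adjusted p = 0.000197) and 1.3-fold in IRI+Hemin (adjusted p = 0.0439). The last was lost in 7 of the 12 settings, with values between -0.05 and 0.42, and without any 1 of 11 arrays, with values between 0.29 and 0.39. Under normexp the calls were lost in IRI, at 0.36, in IPC+IRI, at 0.33, and in IRI+Hemin, at 0.0632. In the deposited log2 matrix with the same scaling, where many values are blank, the call was lost in IRI, at 0.0337 (adjusted p = 0.938), and the sign turned in IPC+IRI and IRI+Hemin, to -0.27 and -0.05. Without scaling, the values of that matrix were 0.34, 0.22 and 0.42 and none was called.

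The probe with the BH3 codons of Bcl2l11 shown above was not well above background on any Control array, and it was so on all 4 arrays of each injured group and on 3 of 4 Hemin arrays. Its log2 signal was -3.62 ± 0.10 in IRI, -3.57 ± 0.44 in IPC+IRI and -3.56 ± 0.28 in IRI+Hemin (SD, n = 4). Against Control, where only a bound can be given, it was at least 2.11-fold higher in IRI, at least 2.19-fold in IPC+IRI and at least 2.20-fold in IRI+Hemin. The bound sets the mean of the bright group against the higher, on each Control array, of the probe's own signal and the lowest signal of any probe well above background. For Hemin no bound is given, since replicate 4, at -4.65, was itself not well above background. The brightest probe, A_52_P158527, went from -0.42 ± 0.07 in Control to -0.01 ± 0.14 in IRI (log2 difference 0.42, adjusted p = 0.0426). The last, A_52_P348214, named for a cDNA clone, was above background on 2 of the 20 arrays, both of IRI+Hemin.

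Bmf, a messenger tied to the cytoskeleton, was lower in IRI than in Control, and the means of both protected groups were nearer to Control, when its probes were averaged. The log2 expression was -1.04, -1.08, -1.61 and -1.27 in Control and -1.58, -2.01, -2.15 and -2.30 in IRI, where the lowest Control array fell just inside the IRI range. It averaged -1.26 ± 0.36 in IPC+IRI, -1.41 ± 0.50 in IRI+Hemin and -0.71 ± 0.30 in Hemin (SD, n = 4). IPC+IRI replicate 1, at -1.76, and IRI+Hemin replicate 4, at -2.13, lay inside the IRI range. The fall in IRI was 1.69-fold (log2 fold change -0.76, SE 0.24, adjusted p = 0.0133), and it was lost in 4 of the 12 settings, with values between -0.64 and -0.31. IPC+IRI was 1.68-fold above IRI (log2 fold change 0.75, SE 0.24, adjusted p = 0.0169), a call lost with normexp, at 0.27 (adjusted p = 0.245), and without IRI replicate 4 or IPC+IRI replicate 3, at 0.65 and 0.66. IRI+Hemin was 1.52-fold above IRI (log2 fold change 0.60, SE 0.24, adjusted p = 0.0481), a call that was lost in 9 of the 12 settings, with values between 0.17 and 0.82, and without any 1 of 14 arrays, with values between 0.49 and 0.60.

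The 2 Bmf probes above background on all arrays differed. A_51_P482239 read -1.61, -1.44, -1.68 and -1.81 in Control and -3.32, -3.09, -3.08 and -3.23 in IRI, without overlap (log2 difference -1.55, adjusted p = 2.58e-07). It stayed low in IPC+IRI, at -3.11 ± 0.23, and in IRI+Hemin, at -3.07 ± 0.27, with log2 differences from IRI of 0.07 and 0.11, and it was low in Hemin as well (log2 difference -0.90, adjusted p = 0.000276). Its interaction of Hemin and IRI passed too (log2 difference 1.01, adjusted p = 0.00588). A_52_P384394, 3793 bases away, did not pass in IRI vs Control (log2 difference -0.56, adjusted p = 0.108), was higher in IPC+IRI than in IRI (log2 difference 0.85, adjusted p = 0.0198), and was higher in Hemin than in Control (log2 difference 0.84, adjusted p = 0.0278). Of these 2 probes, A_52_P384394 alone was nearer to Control than to IRI in the protected groups, at 0.14 ± 0.44 in IPC+IRI and -0.04 ± 0.58 in IRI+Hemin, against -0.15 ± 0.35 in Control and -0.71 ± 0.36 in IRI. The remaining probe, A_52_P78830, was above background on 5 of the 20 arrays.

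Bad, a messenger that growth factor signals switch off by phosphorylation, was likewise lower in IRI and higher in both protected groups than in IRI, and its probes also differed. The log2 expression of its name was -2.64, -2.42, -2.62 and -2.64 in Control and -3.55, -3.66, -3.56 and -3.13 in IRI, without overlap, and 1.86-fold lower in IRI (log2 fold change -0.90, SE 0.16, adjusted p = 0.000152), a call lost under normexp, at -0.04. It was 1.45-fold above IRI in IPC+IRI (log2 fold change 0.53, SE 0.16, adjusted p = 0.011), where IPC+IRI replicate 2, at -3.40, lay inside the IRI range and the call was lost in the fit on the compared arrays alone (adjusted p = 0.0629). It was 1.56-fold above IRI in IRI+Hemin (log2 fold change 0.65, SE 0.16, adjusted p = 0.00311). Of the 21 probes of the 9 members whose strand is given in a RefSeq table, 20 lie on the strand of their gene, and the exception is the Bad probe A_52_P614762, named for a cDNA clone, at chr19:7025594-7025653. It went from -2.32 ± 0.34 in Control to -3.55 ± 0.34 in IRI (log2 difference -1.23, adjusted p = 0.000179), and was higher in IPC+IRI (log2 difference 1.04, adjusted p = 0.000952) and in IRI+Hemin (log2 difference 1.10, adjusted p = 0.00063) than in IRI. The probe of the RefSeq transcript, A_51_P419364, was lower in IPC+IRI than in Control (log2 difference -0.65, adjusted p = 0.00939). It did not pass in IRI vs Control (log2 difference -0.46, adjusted p = 0.0648) and differed from IRI by -0.20 in IPC+IRI and 0.06 in IRI+Hemin. The called differences of Bad from IRI are thus differences of a probe that lies on the opposite strand, and under normexp both changed sign, to -0.22 and -0.23.

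Bik, a messenger of the endoplasmic reticulum and the mitochondria, passed in no comparison. Its single probe averaged -0.87 ± 0.31 in Control, -0.56 ± 0.10 in Hemin, -1.37 ± 0.38 in IRI, -0.96 ± 0.14 in IRI+Hemin and -0.95 ± 0.46 in IPC+IRI (SD, n = 4). The nearest to the threshold was IRI vs Control (log2 fold change -0.50, SE 0.21, adjusted p = 0.0559), where the groups overlapped (exact permutation test, two-sided, p = 0.086). With IRI replicate 4, the highest IRI array, left out, the difference was -0.66 (adjusted p = 0.017). This was 1 of 4 arrays without which Bik was called lower in IRI vs Control. It was also called in 2 of the 12 settings, over which the difference lay between -0.69 and -0.21.

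Between the protected groups and IRI, the members that passed were those named above. In IPC+IRI vs IRI, 26.0% of 17663 tested genes were higher and 17.7% lower. Among the 10 members, 3 were higher (Bcl2, Bad and Bmf) and 2 lower (Bcl2l1 and Bcl2l2). In IRI+Hemin vs IRI, 26.1% of 17831 genes were higher and 18.0% lower, and 4 members were higher (Bcl2, Bid, Bad and Bmf) and 1 lower (Bcl2l1). The median log2 fold change of the members was 0.18 and 0.16, and of all tested genes 0.09 and 0.08. Both comparisons share the IRI arrays, so that Bcl2 (0.90 and 0.63), Bcl2l1 (-0.97 and -0.85) and Mcl1 (-0.24 and -0.21) are given side by side with no test of their likeness.

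The protected groups were also compared with Control, whose arrays these comparisons share. In IPC+IRI vs Control, 23.1% of 18342 genes were higher and 32.6% lower, and 3 members were higher (Mcl1, Bcl2l11 and Bcl2l1) and 3 lower (Bid, Bcl2l2 and Bak1). In IRI+Hemin vs Control, 24.4% of 18483 genes were higher and 33.1% lower, with 3 of the 10 higher and 3 lower. Bcl2 did not differ past the threshold in either, at 0.11 (SE 0.14, adjusted p = 0.511) and -0.16 (SE 0.14, adjusted p = 0.352). In Hemin vs Control, 18.4% of 18572 genes were higher and 17.5% lower, and of the members Bcl2 was higher and Bak1 and Bid lower.

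Of 38 other genes of the family and of the mitochondrial death pathway, 35 were tested in IRI vs Control, where 9 were higher and 5 lower, against 17.0% and 33.7% of all genes tested. Their median log2 fold change was 0.07 over the 35. The values that follow are log2 fold changes. The BH3-only gene Bbc3 (PUMA), a target of p53, rose (1.94, adjusted p = 2.24e-06), and Pmaip1 (NOXA), whose product binds MCL1, rose by 0.84 (adjusted p = 0.0353). The effector Bax fell in IRI (-0.56, adjusted p = 0.0153) and was higher than in IRI in both protected groups, by 1.28 in IPC+IRI (adjusted p = 4.37e-05) and 1.32 in IRI+Hemin (adjusted p = 3.09e-05). The protected means were above Control as well, and the mean of uninjured Hemin was the highest. The mean log2 expression of Bax was 0.60 in Control, 1.32 in IPC+IRI, 1.37 in IRI+Hemin and 1.67 in Hemin. Downstream of the pore, Apaf1, which assembles the apoptosome, rose in IRI (0.95, adjusted p = 0.0173), Casp9 fell (-0.38, adjusted p = 0.0355), and the inhibitor of apoptosis Birc3 rose (1.65, adjusted p = 4.17e-08). Of the other relatives, the mitophagy receptor gene Bnip3 (0.44, adjusted p = 0.00156) rose, and Bcl2l12 (-0.70, adjusted p = 0.00245) and Bcl2l14 (-0.76, adjusted p = 0.00292) fell. The little-studied Bcl2l15 is among the 9 higher genes, but 0 of 4 Control arrays and 3 of 4 IRI arrays read it well above background, and no fold is given. The channel genes Vdac1, Vdac2 and Vdac3 did not pass in IRI vs Control, with values between -0.18 and 0.07, and all 3 were higher in IPC+IRI than in IRI, by 0.37, 0.75 and 0.48. Vdac2 and Vdac3 were higher in IRI+Hemin than in IRI, by 0.56 and 0.55, and all 3 were higher than in Control in IRI+Hemin and in Hemin, where they rose by 0.42, 0.74 and 0.41.

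Of 9 genes that act on the members themselves, 3 were higher and 1 lower in IRI vs Control, where 17.0% and 33.7% of all genes were. The deubiquitinase Usp9x, which stabilises MCL1 protein, rose in IRI (0.68, adjusted p = 0.000427) and was lower than IRI in both protected groups (-0.82 and -0.54). The 14-3-3 gene Ywhaz, whose product holds phosphorylated BAD in the cytosol, rose in IRI (0.64, adjusted p = 0.0159) and was also lower in both (-1.03 and -1.48). Uninjured Hemin had the lowest mean log2 expression of the 5 groups for both genes, at -1.21 for Usp9x and 1.09 for Ywhaz. The Control means were -0.55 and 2.24. Ywhaz was below Control in the protected groups too, with means of 1.85 in IPC+IRI and 1.40 in IRI+Hemin. Bag3, a chaperone partner, rose by 1.77 (adjusted p = 3.99e-09), and Dynll1, a dynein light chain that binds BIM, fell (-0.39, adjusted p = 0.0352). In the other comparisons, the counts of the 38-gene list stand beside the shares of all tested genes. In IPC+IRI vs Control, 15 of 36 tested genes were higher and 6 lower, where 23.1% and 32.6% of all genes were. In IRI+Hemin vs Control they were 14 and 7 of 35 (24.4% and 33.1%). Against IRI they were 11 and 6 of 36 in IPC+IRI (26.0% and 17.7%) and 10 and 10 of 35 in IRI+Hemin (26.1% and 18.0%). They were 12 and 5 of 35 in Hemin vs Control (18.4% and 17.5%), and 1 and 2 of 35 in the interaction (5.82% and 1.95%). The leukocyte guardian Bcl2a1b was higher in IPC+IRI than in Control (2.21, adjusted p = 0.000114), where the summed level of the neutrophil markers was 6.36 to 19.3. In IRI, where that sum was 2.49 to 8.08, Bcl2a1b did not pass (0.44, adjusted p = 0.357). In IRI+Hemin, where it was 2.21 to 9.51, Bcl2a1b was higher than in Control (1.19, adjusted p = 0.0127). In Hemin, where it was 0.521 to 1.62, Bcl2a1b did not pass (0.97, adjusted p = 0.054). The part of leukocytes in these values was not tested.

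For the 3 members with the largest changes in IRI vs Control, the genes with the most similar log2 expression over the 20 arrays were found by Pearson's r among 17224 genes, as a description with no test. The arrays share 5 groups, so r follows group means as well as single arrays. For Mcl1 they were Maff (0.982), Pvr (0.982) and the clone 3230401D17Rik (0.980). For Bcl2l1 they were Cast (0.979), which encodes the calpain inhibitor calpastatin, Yrdc (0.971) and an unnamed cDNA (0.971). For Bid the values were lower, with 6720456H20Rik (0.888), BC025446 (0.879) and Mum1l1 (0.877).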

How the data were processed

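Agilent single-colour mouse arrays had been read with Feature Extraction 9.5.3.1, which, per the file headers, made the deposited processed signal, a background-subtracted intensity on a linear scale. The authors also deposited a matrix of log2 values. It equals log2 of that signal within 0.001 for 100% of 33598 probes with a single spot, and 18.1% of its entries are blank, so it was used as an alternative.

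For each array, spots with an outlier flag were removed, spots of a probe were averaged, signals were divided by the 75th percentile over probes, and probes of a gene name were averaged before log2. A gene was tested in a comparison if at least 3 of 4 arrays of either group were well above background and at most 1 value was missing. Groups came from the labels. limma 3.58.1 (lmFit and eBayes, R 4.3.3) was fitted over all 20 arrays (15 residual degrees of freedom), with Benjamini-Hochberg adjustment within each comparison. Single probes were fitted in the same way over all probes, an alternative chosen after seeing the data. The script was tested on simulated data.

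Groups of 4 arrays limit the precision. The labels do not say that arrays are from separate animals, so p-values measure the spread between these samples, which may be technical. IRI+Hemin vs Control is not among the comparisons the study lists. The members and gene lists were chosen with earlier results of these data known. Genes named were the 10 members and, from the list of the death pathway, those that passed or act directly on a member. Alternatives were normexp, scaling, probe averaging, dim-gene filters, the deposited matrix, a fit on the compared arrays alone, a 2-fold cutoff, the replicate block and each array left out. Replicate numbers were not treated as pairs in the reported fit. Probe sequences and coordinates are from the array annotation on mm9, and gene strands from RefSeq.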

Additional observations from a re-analysis of the deposited data

Results flagged for a closer look

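In Control, the log2 expression of Bad was -2.42 on replicate 2, apart from the other 3 arrays, which lay between -2.64 and -2.62 (gap over range 0.905). It was the only such value among the 50 sets of 4 arrays examined, and chance alone gives about 1 in 20.

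The change with Hemin differed between injured and uninjured kidneys for Bid, read by the single probe A_52_P574653, with an interaction of 0.85 on the log2 scale in the limma fit (adjusted p = 0.0182 over genes). The same test on single probes gave 0.97 for the Bak1 probe A_52_P225207 and 1.01 for the Bmf probe A_51_P482239, both lower in Hemin than in Control and not called in IRI+Hemin vs IRI.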

How the results depend on the processing

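The rises of Mcl1 and Bcl2l1 and the fall of Bid in IRI vs Control were called under each of the 12 settings fitted and with each of the 20 arrays left out. For Bid, read by a single probe, the settings of the brightest probe and of averaged log2 values cannot change the fold change. Of 838 values of the members under the 12 settings, 648 kept their direction and side of the threshold, 21 that were called as reported or under the setting changed sign, and 66 that were called in neither changed sign. Of 1400 values with 1 array left out, 1313 kept direction and side, and the 20 that changed sign were called in neither. The cause of the changes that follow was not tested.

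With normexp background correction and its offset of 50, 3 members were called in IRI vs Control (8 as reported), 3 in IRI+Hemin vs Control (6), 2 in IPC+IRI vs IRI (5), 2 in IRI+Hemin vs IRI (5) and 0 in the interaction (1). Without scaling between arrays they were 3 in IRI+Hemin vs Control, 6 in Hemin vs Control (3) and 0 in the interaction. In the deposited matrix without scaling they were 5 in IRI vs Control, 3 in IPC+IRI vs Control (6), 2 in IRI+Hemin vs Control, 3 in IPC+IRI vs IRI, 3 in IRI+Hemin vs IRI, 5 in Hemin vs Control and 0 in the interaction. In Hemin vs Control, quantile normalization gave 6 and the 75th percentile of the probes above background on all arrays 5. A fit on the compared arrays alone gave 7 there and 3 in IPC+IRI vs IRI. A 2-fold cutoff in addition left 2 in IRI vs Control, 1 in IPC+IRI vs Control, 1 in IRI+Hemin vs Control and 0 in each of the other comparisons. With 1 array left out the counts ranged from 8 to 9 in IRI vs Control, 6 to 7 in IPC+IRI vs Control, 4 to 6 in IRI+Hemin vs Control, 4 to 6 in IPC+IRI vs IRI, 3 to 5 in IRI+Hemin vs IRI and 2 to 5 in Hemin vs Control. Counts of all genes moved too. Normexp called 3135 genes in IRI vs Control (3003 higher and 5964 lower as reported) and 4673 in IPC+IRI vs IRI (4593 and 3124). In the interaction it called 117 higher and 29 lower (1110 and 371). The deposited matrix without scaling called 3649 genes in IRI vs Control. Without scaling of the processed signal, 8766 genes were higher and 477 lower in Hemin vs Control (3417 and 3258).

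Signs turned as follows. With the brightest probe, Bak1 was 0.45 in IRI vs Control and 0.0635 in IPC+IRI vs Control. Without scaling, from the processed signal, Bak1 was 0.0343 in IPC+IRI vs Control, 0.149 in IRI+Hemin vs Control and 3e-04 in Hemin vs Control, Bcl2l2 was 0.0096 in IRI+Hemin vs Control and 0.0298 in IPC+IRI vs IRI, and Bid was 0.17 in Hemin vs Control. In the deposited matrix without scaling, Bak1 was 0.0343 and 0.149 and Bcl2l2 0.0096 and 0.0298 in the same comparisons, and Bid was 0.0452. With log2 values averaged over probes, Bcl2l2 was 0.0333 in IPC+IRI vs Control, 0.0679 in IRI+Hemin vs Control, 0.16 in IPC+IRI vs IRI and 0.40 in Hemin vs Control. In the deposited matrix with the same scaling, Bcl2l11 was -0.27 in IPC+IRI vs Control and -0.0472 in IRI+Hemin vs Control. With normexp, Bad was -0.22 in IPC+IRI vs IRI and -0.23 in IRI+Hemin vs IRI.

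Leaving out the scaling moved the median of all genes to 0.62 in Hemin vs Control (0.06 as reported) and raised the share of higher genes among those called from 51.2% to 94.8%. With normexp the same share in IRI vs Control was 56.5%, against 33.5%, and 3135 genes were called, against 3003 higher and 5964 lower genes as reported.

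Same-numbered arrays deviated from their group means with r between -0.313 and 0.197. In IRI vs Control, 3 of 4 IRI arrays correlated best with the Control array of their own number, with r up to 0.197. In the other comparisons this held for 0 to 2 of 4 arrays. The fit with the replicate block called 8 members in IRI vs Control, 6 in IPC+IRI vs Control, 5 in IRI+Hemin vs Control, 5 in IPC+IRI vs IRI, 4 in IRI+Hemin vs IRI, 2 in Hemin vs Control and 1 in the interaction. A random block for slides could not be fitted, since each slide holds 1 group. Of the 22 member probes, 3 were not above background on all arrays, and they belong to Bcl2l11 and Bmf.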
